A study of Rattus norvegicus with 6 samples.

Results

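The genes described here encode matrix metalloproteases (MMPs), the disintegrin proteases of the ADAM and ADAMTS families, the inhibitors that hold them in check and a few proteases that work beside them. A probe set, the group of array oligonucleotides that reports 1 transcript, was a member if its annotation gave exactly 1 gene symbol and that symbol was Mmp, Timp, Adam, Adamts or Adamtsl followed by a digit, or was Reck, Plat, Plau, Plaur, Mme, Ece1, Htra1, Htra3 or Pappa. This gave 91 probe sets for 63 genes, of 31042 probe sets tested and of 14217 genes with a probe set of 1 symbol. Pappa had no such probe set and was not analysed here. Of the 63 genes, 44 had 1 probe set and 19 had several.

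MMPs are zinc enzymes made as inactive proforms, which cut collagens, laminins and other matrix proteins once their propeptide is removed. The tissue inhibitors of metalloproteases (TIMPs) block the active site, while Reck is a membrane-anchored inhibitor. ADAMs sit in the plasma membrane and shed growth factors, cytokines and adhesion molecules from the cell surface, although some of them lack a working catalytic site and act in adhesion. ADAMTS enzymes are secreted, bind matrix through thrombospondin repeats and cut proteoglycans and procollagens, and the ADAMTS-like proteins keep the repeats without the protease. In the intestine these enzymes are known for their part in matrix turnover, wound closure and inflammation, where stromal cells make many of them.

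RNA came from IEC-6, an undifferentiated cell line of rat small intestinal crypt origin, grown in DMEM with 5% fetal bovine serum. ShControl cells carried a lentiviral short hairpin RNA of scrambled sequence and ShSuz12 cells carried one against Suz12, a subunit of the Polycomb repressive complex 2 that methylates histone H3 on lysine 27. Both were populations selected with puromycin, and each group is 1 infected line sampled in 3 independent experiments, so 3 ShControl and 3 ShSuz12 samples were hybridised to 6 Affymetrix rat arrays. The p-values therefore measure the spread between experiments and cannot tell the hairpin apart from other differences between the lines. All values below are log2 values after robust multi-array averaging (RMA), in which 1 unit is a 2-fold difference.

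Suz12, the target of the hairpin, had log2 values of 8.45, 8.55 and 8.77 in ShControl cells and of 5.82, 5.77 and 5.91 in ShSuz12 cells, a log2 fold change of -2.76 (standard error, SE, 0.09, adjusted p = 2.78e-07, limma). Epithelial markers were split between high and low signal. One Cdh1 probe set was in the top percentile of ShControl signal (percentile 99.3) and the other at percentile 6.4. Krt8 was at percentile 90.2, whereas Epcam, Krt18, Cldn4 and Fabp2 lay at percentiles 5.9, 8.2, 9.1 and 8.0. Fibroblast and smooth muscle markers were split as well. The mesenchymal transcripts Vim, Fn1 and Col1a1 were above the 99th percentile in both groups. In ShControl samples Lum, Cnn1 and Des lay at percentiles 8.99, 22.6 and 45.8. Of 25 probe sets for fibroblast and smooth muscle markers, 14 rose (56.0%, against 14.8% of all probe sets) and 2 fell (8.0%, against 19.5%). Their summed linear signal ranged from 50700 to 55345 over the ShControl arrays and from 71041 to 73434 over the ShSuz12 arrays. Such a sum follows the brightest probe sets, among them Col3a1 (log2 fold change 2.33), S100a4 (0.99), Fn1 (0.25) and Vim (-0.06). No sum without Col3a1 was made. Of 16 epithelial marker probe sets, 3 rose (18.8%) and 2 fell (12.5%), with a summed linear signal of 7126 to 7969 against 4754 to 4923. Without Cdh1, a sum added after seeing the data, they were 1260 to 1328 and 1169 to 1215. Cdh1 and Krt8 were the epithelial markers that fell, and Acta2 (-0.66) and Tagln (-0.35) were the fibroblast and smooth muscle markers that fell. The only 2-fold changes among the epithelial markers were rises, of Cdx2 by 1.56 and of Krt19 by 1.19. Leukocyte markers summed to 283 to 288 and 270 to 278 over 13 probe sets, and endothelial markers to 137 to 152 and 151 to 165 over 7 probe sets. The part of these marker shifts in the protease results was not tested, and in bulk RNA fewer cells of a type and less RNA per cell cannot be told apart.

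Promoter sequences are shown first for the genes with the largest rises described below and for a block of neighbouring MMP genes that had low signal in both groups. Of the 63 genes, 41 matched a RefSeq promoter on GRCr8, and 5 of the 8 genes at least 2-fold higher were among them. No entry was found for Mmp2, Mmp16 and Adam23. For the 5 genes, the 250 bases before the transcription start are printed 5′ to 3′ on the strand of the gene. Capitals mark the GC box GGGCGG or its reverse complement CCGCCC, to which Sp1-type factors are known to bind, the AP-1 motif TGANTCA, which is its own reverse complement, and TATAAA on the gene's strand. The TATAAA of Adamts1 ends 1 base before a GC box, and no other matches touched.
Adamts1, chr11:38427385-38427634, minus strand: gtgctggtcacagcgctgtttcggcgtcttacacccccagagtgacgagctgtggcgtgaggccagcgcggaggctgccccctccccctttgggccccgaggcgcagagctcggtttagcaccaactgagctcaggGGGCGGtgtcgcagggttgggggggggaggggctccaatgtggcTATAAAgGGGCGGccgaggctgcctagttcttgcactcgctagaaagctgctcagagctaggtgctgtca
Adam19, chr10:30992511-30992760, plus strand: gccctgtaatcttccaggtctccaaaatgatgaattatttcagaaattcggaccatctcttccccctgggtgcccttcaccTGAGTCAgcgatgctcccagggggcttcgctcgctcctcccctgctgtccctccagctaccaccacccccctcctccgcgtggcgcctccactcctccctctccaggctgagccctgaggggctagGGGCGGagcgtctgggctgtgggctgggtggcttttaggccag
Adamts9, chr4:127019877-127020126, minus strand: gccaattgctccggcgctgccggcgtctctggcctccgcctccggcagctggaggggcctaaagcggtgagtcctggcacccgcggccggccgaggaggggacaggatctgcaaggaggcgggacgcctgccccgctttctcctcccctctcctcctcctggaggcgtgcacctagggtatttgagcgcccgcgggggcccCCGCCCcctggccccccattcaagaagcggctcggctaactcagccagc
Mme, chr2:149872247-149872496, plus strand: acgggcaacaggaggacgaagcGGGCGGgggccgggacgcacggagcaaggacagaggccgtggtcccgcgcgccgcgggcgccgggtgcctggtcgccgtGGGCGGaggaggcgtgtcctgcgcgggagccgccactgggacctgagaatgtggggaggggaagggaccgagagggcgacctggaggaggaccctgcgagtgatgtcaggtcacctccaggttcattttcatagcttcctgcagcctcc
Adam22, chr4:26670862-26671111, plus strand: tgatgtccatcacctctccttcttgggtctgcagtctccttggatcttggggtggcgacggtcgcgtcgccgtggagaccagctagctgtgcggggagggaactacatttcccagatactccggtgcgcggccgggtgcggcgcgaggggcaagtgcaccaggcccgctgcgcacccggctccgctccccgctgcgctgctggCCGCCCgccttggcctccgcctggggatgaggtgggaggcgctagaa

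All 5 of these promoters held a GC box, 1 held the AP-1 motif and 1 held TATAAA. Their GC content was 62.8% to 71.6% and their median ratio of observed to expected CpG was 0.66. Among 39 promoters of 36 other member genes, 56.4% held a GC box, 15.4% the AP-1 motif and 15.4% TATAAA. Their median CpG ratio was 0.54. They include the block of 6 neighbouring MMP genes, of which 0 held a GC box. Members that fell at an adjusted p under 0.05 also held GC boxes, 2 in Adam10, 2 in Adamts10, 3 in Timp3 and 1 in Adam8. Their CpG ratios were 0.90, 0.82, 0.78 and 0.12, and Adam2, which also fell, had no entry. Whether these sets differ was not tested. Over all 33469 promoters of the table the shares were 30.5% with a GC box, 6.34% with the AP-1 motif and 8.06% with TATAAA, and the median CpG ratio was 0.38. A match to these letters is a description of the sequence and not of binding.

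The 6 MMP genes Mmp13, Mmp12, Mmp3, Mmp10, Mmp8 and Mmp7 follow one another on chromosome 8 of the rat with at most 2 other protein-coding genes between neighbours. The 100 bases before each start are shown because their letters differ in kind from those above.
Mmp13, chr8:12782729-12782828, plus strand: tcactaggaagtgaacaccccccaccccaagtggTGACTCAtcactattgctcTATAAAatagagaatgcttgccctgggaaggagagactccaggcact
Mmp12, chr8:12866552-12866651, plus strand: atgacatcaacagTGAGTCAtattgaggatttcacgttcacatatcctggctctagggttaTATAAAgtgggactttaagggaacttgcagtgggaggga
Mmp3, chr8:12925181-12925280, plus strand: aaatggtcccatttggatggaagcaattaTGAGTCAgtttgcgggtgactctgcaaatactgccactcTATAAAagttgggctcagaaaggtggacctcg
Mmp10, chr8:12974607-12974706, plus strand: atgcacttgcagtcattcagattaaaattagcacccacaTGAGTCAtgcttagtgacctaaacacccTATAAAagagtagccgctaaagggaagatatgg
Mmp8, chr8:13008790-13008889, plus strand: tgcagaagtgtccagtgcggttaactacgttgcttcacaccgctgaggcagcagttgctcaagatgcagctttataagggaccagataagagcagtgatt
Mmp7, chr8:13132943-13133042, plus strand: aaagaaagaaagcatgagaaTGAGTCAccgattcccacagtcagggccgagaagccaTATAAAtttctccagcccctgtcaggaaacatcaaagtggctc

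The AP-1 motif, the binding sequence of Fos and Jun dimers, and TATAAA were each found in 5 of these 6 promoters, all but that of Mmp8, and a GC box in 0. The AP-1 motif began 61 to 87 bases before the start and the TATAAA nearest to the start began 32 to 47 bases before it. GC content over the full 250 bases was 36.0% to 48.0%.

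Across the 91 probe sets the larger changes ran one way. With an adjusted p under 0.05 and a change of 2-fold or more, 10 probe sets of 8 genes were higher in ShSuz12 cells, 11.0% of the members, against 3.1% of all probe sets tested. By the same rule 0 members were lower, against 0.396% of all probe sets, and the methods' t-test also found 0 at 2-fold. At an unadjusted p under 0.05 (limma), 13 of the 91 members were lower, against 8051 of all 31042 probe sets. At an adjusted p under 0.05 without the fold limit, 34 probe sets of 28 genes rose (37.4%, against 14.8% of all probe sets). By that rule 8 probe sets of 5 genes fell (8.79%, against 19.5%). The remaining 49 probe sets did not pass, which left 30 genes without a probe set past the threshold, and no gene had probe sets that passed in both directions on the values as deposited. With the array medians subtracted, Mmp24 and Htra3 each had a probe set that rose and one that fell. The groups did not overlap and ShSuz12 was higher in 37 probe sets, 40.7% against 19.4% of all probe sets, and ShSuz12 was lower without overlap in 12, 13.2% against 28.1%.

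**Figure D1:**
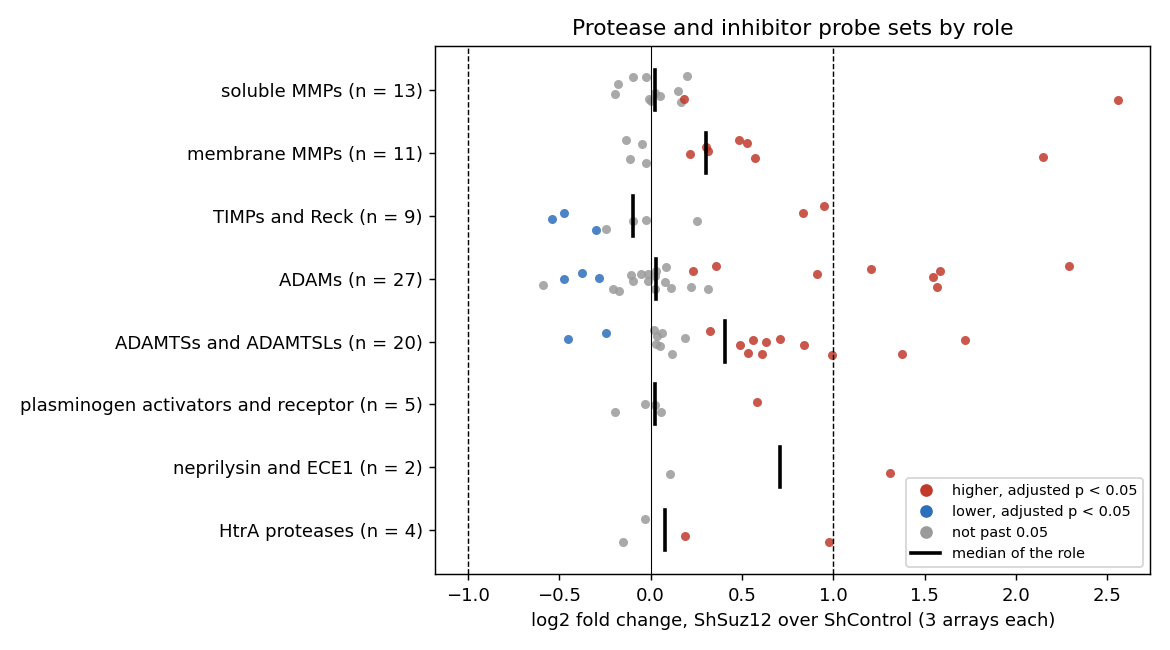
Each of 91 probe sets is 1 point at its log2 fold change between ShControl and ShSuz12 cells, with rows for the roles; colours mark direction at an adjusted p under 0.05, dashed lines mark 2-fold and black bars the median of the role. All 10 points beyond a dashed line lie on the side higher in ShSuz12 cells, and the ADAMTS family and the membrane MMPs have medians of 0.41 and 0.30.

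The median log2 fold change of the members was 0.08, against -0.05 for all probe sets. The ShSuz12 arrays had slightly higher medians than the ShControl arrays. When each array's median was subtracted, the median of all probe sets moved to -0.15 and that of the members to -0.02, so the sign of the members' median depends on the scaling. The same step moved the split of members from 34 higher and 8 lower to 28 higher and 15 lower, while the 10 calls at 2-fold all remained. Over all 31042 probe sets the split moved from 4607 higher and 6054 lower to 3576 higher and 11752 lower.

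Gelatinases cut denatured collagen and basement membrane collagen, and Mmp2 and Mmp9 are the 2 members of this class. The Mmp2 probe set 1370301_at had log2 values of 5.14, 4.94 and 5.33 in ShControl and of 7.66, 7.63 and 7.80 in ShSuz12 samples. The groups were far apart, and the log2 fold change of 2.56 (SE 0.10, adjusted p = 7.75e-07, limma), or 5.89-fold, was the highest among the members. It moved this probe set from percentile 36.6 to percentile 67.8 of the array signal. A second Mmp2 probe set, 1369825_at, gave 4.91, 4.95 and 4.91 against 4.94, 4.77 and 4.52, with overlapping groups and a log2 difference of -0.18 (adjusted p = 0.214). The probe sets of Mmp2 thus disagreed, and where on the transcript each one lies was not given in the files used here. Mmp9 was low throughout, with values from 3.44 to 3.80 over both of its probe sets and all 6 arrays, and differences of 0.03 and -0.01 (95% intervals -0.11 to 0.16 and -0.27 to 0.25).

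The collagenases Mmp8 and Mmp13, the stromelysins Mmp3 and Mmp10, the matrilysin Mmp7 and the macrophage elastase Mmp12, whose promoters are shown above, were all below the 20th percentile of the array in both groups. Their 6 probe sets ranged from 3.37 to 4.15 over the 6 arrays and had no present calls here that would set such signal apart from background. Mmp13 passed the test with values of 3.41, 3.46 and 3.37 against 3.63, 3.59 and 3.56 (log2 fold change 0.18, adjusted p = 0.0303). That call was lost when any 1 array but ShControl replicate 2 was left out (adjusted p 0.0568 to 0.0978). Mmp10 had a difference of -0.20 with groups that did not overlap (adjusted p = 0.0506), which passed without ShControl replicate 2 or without ShSuz12 replicate 1 (adjusted p = 0.0301 and 0.0408).

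Among the other soluble enzymes, stromelysin 3 (Mmp11), which has little activity on matrix and is usually stromal, was well measured at 8.87, 9.07 and 8.65 against 9.06, 8.99 and 9.14. The groups overlapped, and the difference of 0.20 did not pass (adjusted p = 0.18) unless ShControl replicate 2 was left out (0.31, adjusted p = 0.0315). Mmp19 differed by 0.17 (adjusted p = 0.147, and 0.0436 without ShControl replicate 1) and Mmp28 by 0.05. Of 13 probe sets for 11 soluble MMPs, 2 rose (15.4%, near the 14.8% of all probe sets) and 0 fell (against 19.5%). With the array medians subtracted 1 rose and 2 fell, against 3576 and 11752 of all 31042 probe sets. In that fit Mmp13 did not pass, and Mmp10 and Mmp7 passed as lower (adjusted p = 0.00679 and 0.0462).

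Membrane MMPs stay at the cell surface, where the best known of them, Mmp14, activates pro-Mmp2 in a complex with Timp2. Of 11 probe sets for 6 genes, 7 rose (63.6%, against 14.8% of all probe sets) and 0 fell (against 19.5%). At least 1 probe set of every gene was among those that rose. With the array medians subtracted 4 rose and 1 fell, against 3576 and 11752 of all 31042 probe sets. In that fit Mmp15 (adjusted p = 0.0546), Mmp23 (adjusted p = 0.183) and the second Mmp14 probe set (adjusted p = 0.0726) no longer passed. Mmp24 1372422_at passed as lower. Mmp16, another transmembrane activator of pro-Mmp2, had values of 4.04, 3.86 and 3.63 in ShControl and of 6.02, 6.19 and 5.78 in ShSuz12 samples. The gap between the groups was wider than the range within either, with a log2 fold change of 2.15 (SE 0.13, adjusted p = 9.17e-06, limma), and the signal moved from percentile 12.6 to percentile 46.7. Mmp14 rose less, from 11.33, 11.31 and 11.26 to 11.78, 11.78 and 11.79 at probe set 1367860_a_at, a log2 fold change of 0.49 (adjusted p = 0.000179). Its second probe set gave 0.31 (adjusted p = 0.0235), a call lost in 4 of 6 leave-one-out fits (without ShControl replicate 2 or 3 or ShSuz12 replicate 1 or 3; adjusted p 0.0594 to 0.0788).

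The GPI-anchored Mmp17 had values of 6.61, 6.55 and 6.33 against 6.98, 7.07 and 7.16, and rose by 0.57 (adjusted p = 0.00146). Mmp24, which is known from the nervous system, rose at 1368595_at from 6.58, 6.63 and 6.59 to 7.15, 7.08 and 7.16 (0.53, adjusted p = 0.000134). Its other probe sets did not pass, with differences of -0.03 and -0.11, although the latter fell with the array medians subtracted (-0.21, adjusted p = 0.0346). Mmp15 rose by 0.30 (adjusted p = 0.0168, and 0.0549 without ShSuz12 replicate 1). One of 3 probe sets of Mmp23 rose by 0.21, a call lost when any array but ShControl replicate 1 was left out (adjusted p 0.0780 to 0.118). Its probe set 1368961_at had a difference of -0.13, and of -0.26 (adjusted p = 0.0296) without ShSuz12 replicate 2.

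**Figure D2:**
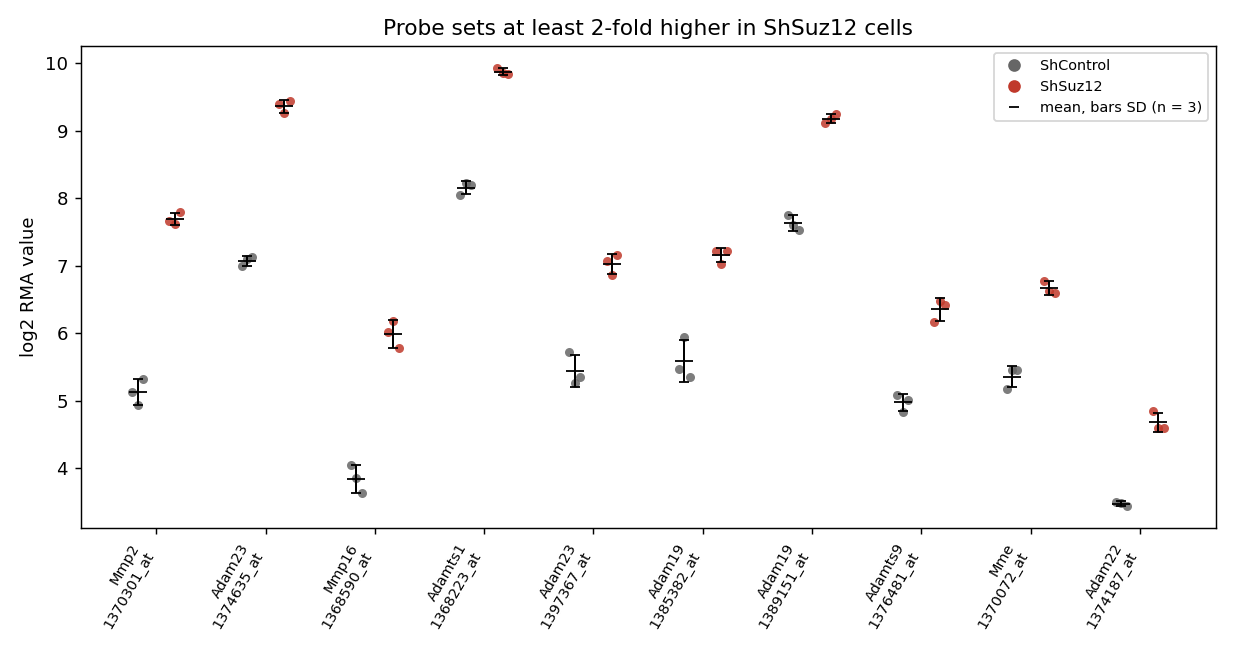
Log2 RMA value on each array for the 10 probe sets called at 2-fold, ordered by log2 fold change, with ShControl in grey, ShSuz12 in red, and mean and SD (n = 3) in black. In each pair the ShSuz12 points lie above every ShControl point, from Mmp2 (5.14, 4.94 and 5.33 against 7.66, 7.63 and 7.80) to Adam22 (3.50, 3.49 and 3.44 against 4.85, 4.60 and 4.60).

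The inhibitors did not move together. Timp1, a secreted inhibitor induced by growth factors and cytokines, had values of 10.99, 10.97 and 10.99 in ShControl and of 11.95, 11.94 and 11.91 in ShSuz12 samples, and rose by 0.95 on the log2 scale (SE 0.05, adjusted p = 3.6e-06, limma), or 1.93-fold. Reck, the GPI-anchored inhibitor that restrains Mmp2, Mmp9 and Mmp14, rose from 10.39, 10.41 and 10.46 to 11.27, 11.27 and 11.22, a log2 fold change of 0.83 (adjusted p = 1.06e-05). Both genes were above the 90th percentile, Timp1 at percentile 96.4 and Reck at percentile 94.1 in ShControl samples, and both changes were under 2-fold.

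Timp2, needed for activation of pro-Mmp2 by Mmp14 and an inhibitor at higher amounts, was at 12.95, 12.92 and 12.93 against 12.88, 12.92 and 12.93. The groups overlapped, and the difference of -0.02 had a 95% interval of -0.14 to 0.09. Its other probe set differed by 0.25 (adjusted p = 0.199), and by 0.40 without ShSuz12 replicate 1 (adjusted p = 0.0321). Among the partners of the activation complex, the log2 differences were thus 2.56 for 1 of 2 Mmp2 probe sets, 0.49 and 0.31 for Mmp14, and -0.02 and 0.25 for Timp2.

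Timp3, which is bound to the matrix and also inhibits Adam17 and several ADAMTS enzymes, was the only inhibitor that fell with all 6 arrays. Probe set 1372926_at went from 9.79, 9.62 and 9.69 to 9.15, 9.20 and 9.33 (-0.47, SE 0.07, adjusted p = 0.00129). Probe set 1389836_a_at went from 12.21, 12.34 and 12.17 to 11.94, 11.94 and 11.95 (-0.30, adjusted p = 0.00625). Neither group overlapped the other in these probe sets. Probe set 1368989_at fell by 0.54 (9.91, 9.15 and 9.59 against 8.93, 9.03 and 9.08, adjusted p = 0.0371) but lost its call when any array but ShControl replicate 2 was left out (adjusted p 0.0746 to 0.104). The fourth, 1375138_at, differed by -0.10 with overlapping groups (adjusted p = 0.485). Timp4 was low, at 3.99, 4.32 and 4.54 against 4.13, 4.03 and 3.96, and its difference of -0.24 passed only without ShControl replicate 1 (-0.39, adjusted p = 0.0174).

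**Figure D3:**
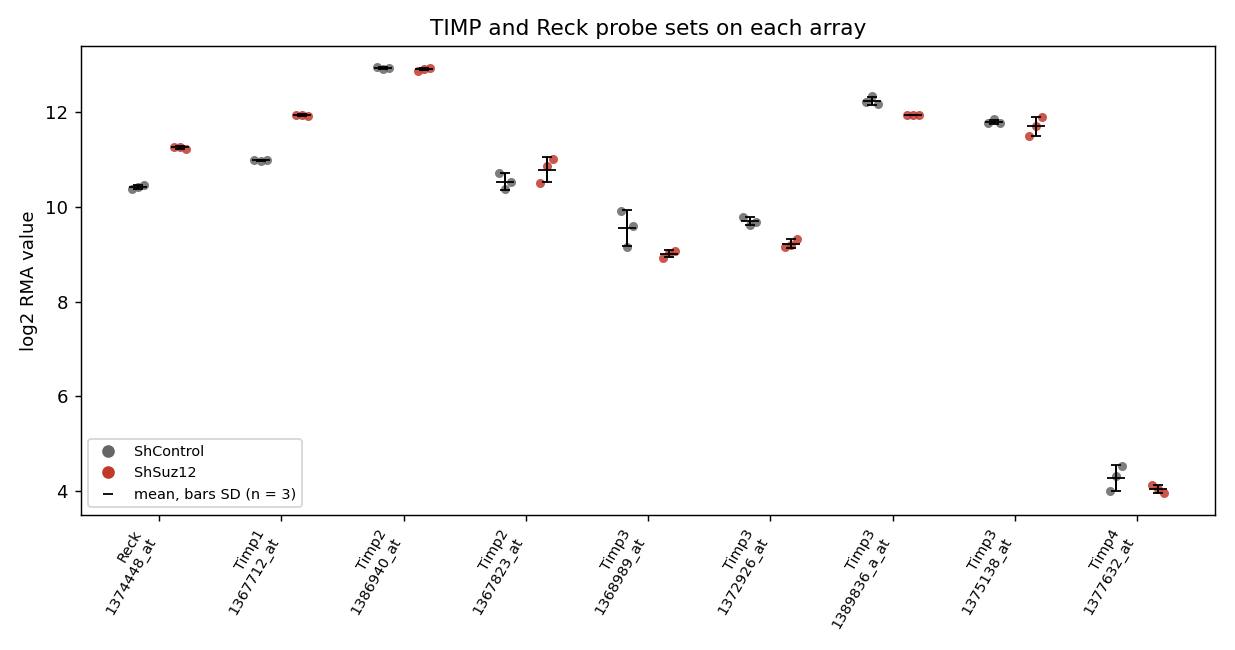
Log2 RMA value on each array for the 9 probe sets of the TIMPs and Reck, with ShControl in grey, ShSuz12 in red, and mean and SD (n = 3) in black. Timp1 and Reck separate upward by 0.95 and 0.83, 3 probe sets of Timp3 separate downward by 0.54, 0.47 and 0.30, and the groups of Timp2, Timp4 and the fourth Timp3 probe set overlap.

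ADAMs gave 27 probe sets for 18 genes. Of these probe sets 8 rose (29.6%, against 14.8% of all probe sets) and 3 fell (11.1%, against 19.5%). With the array medians subtracted 7 rose and 5 fell, against 3576 and 11752 of all 31042 probe sets. Adam23, Adam22 and Adam11 lack a working catalytic site and are best known at synapses as binding partners of Lgi proteins. Adam23 had values of 6.99, 7.10 and 7.13 in ShControl and of 9.39, 9.26 and 9.45 in ShSuz12 samples at probe set 1374635_at, a log2 fold change of 2.29 (SE 0.07, adjusted p = 1.95e-07, limma). Its other probe sets rose as well, 1397367_at from 5.72, 5.26 and 5.36 to 7.06, 6.87 and 7.16 (1.59, adjusted p = 4.27e-05) and 1385405_at from 7.03, 7.17 and 7.10 to 7.45, 7.50 and 7.43 (0.36, adjusted p = 0.00191). Adam23 was the only gene at least 2-fold higher that had several probe sets and all of them past the test.

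Adam22 was near the low end of the array in ShControl samples, at 3.50, 3.49 and 3.44, and reached 4.85, 4.60 and 4.60 in ShSuz12 samples. Its log2 fold change was 1.21 (SE 0.08, adjusted p = 1.29e-05), and its signal moved from percentile 5.4 to percentile 28.7. It was not tested once probe sets under the 40th percentile were left out. The other Adam22 probe sets differed by 0.22 (adjusted p = 0.133, and 0.34 with adjusted p = 0.00891 without ShControl replicate 1) and by -0.05. The remaining non-catalytic member, Adam11, was at 4.88, 4.97 and 4.94 against 4.87, 5.07 and 4.93, with no separation of the groups.

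Adam19, an active protease that sheds neuregulin and is known from heart and nerve development, rose at 2 of its 4 probe sets. Probe set 1389151_at went from 7.76, 7.60 and 7.54 to 9.12, 9.17 and 9.25 (1.55, SE 0.07, adjusted p = 2.23e-06), and 1385382_at from 5.47, 5.94 and 5.35 to 7.23, 7.03 and 7.22 (1.57, adjusted p = 9.46e-05). These agreed in size within their errors. The others lay near percentile 25 in both groups and differed by 0.11 and 0.08.

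Adam17 and Adam10, the main sheddases of most cells, moved in opposite directions. Adam17, the converting enzyme of tumour necrosis factor and of epidermal growth factor receptor ligands, had values of 10.06, 10.13 and 10.03 in ShControl and of 10.99, 11.00 and 10.96 in ShSuz12 samples. The groups were tight and apart, with a log2 fold change of 0.91 (SE 0.05, adjusted p = 7.68e-06, limma), or 1.88-fold. Adam10, which cleaves Notch and cadherins, fell at 1388161_at from 10.54, 10.06 and 10.44 to 10.04, 9.75 and 9.83 (-0.47, adjusted p = 0.0246). Its second probe set gave 9.88, 8.94 and 9.84 against 9.09, 8.93 and 8.88, a difference of -0.59 that did not pass (adjusted p = 0.0823).

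ShControl replicate 2 was the low one of its group in both Adam10 probe sets, in Timp3 1368989_at and in Adam9. Without that array the second Adam10 probe set fell by 0.90 (adjusted p = 0.000192). The call of the first was lost without ShControl replicate 1 or 3 or ShSuz12 replicate 2 or 3 (adjusted p 0.0768 to 0.0826). It was also lost with the methods' t-test (adjusted p = 0.13), while the second passed with the array medians subtracted (-0.69, adjusted p = 0.032) and with the replicate number as a block (adjusted p = 0.0458). The direction of Adam10 was the same in all of these fits, and whether it passed depended on the array left out, the test and the scaling.

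Of the remaining ADAMs of somatic tissues, Adam15 had values of 10.59, 10.80 and 10.48 against 10.57, 10.64 and 10.62 and a difference of -0.01 (95% interval -0.20 to 0.18). Adam9 differed by 0.02, with values of 7.77, 7.07 and 7.70 against 7.66, 7.42 and 7.53. Adam33 differed by 0.09 (adjusted p = 0.276). None of these separated the groups. Adam8, best known from leukocytes, fell by 0.28 at one dim probe set (adjusted p = 0.0292), a call lost without ShControl replicate 3 or any 1 ShSuz12 array (adjusted p 0.0593 to 0.0948). At its other probe set the difference was 0.31 (adjusted p = 0.099), and 0.48 (adjusted p = 0.00307) without ShSuz12 replicate 3, so the probe sets of Adam8 had opposite signs.

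ADAMs known from sperm and the male tract gave 8 probe sets, which were mostly low. Adam32 rose by 0.23 (adjusted p = 0.0457), a call lost whichever of the 6 arrays was left out (adjusted p 0.0511 to 0.139). Adam2 fell by 0.37 (adjusted p = 0.0386), a call lost without ShControl replicate 3 or ShSuz12 replicate 2 or 3 (adjusted p 0.0772 to 0.121). Adam1a had a well measured signal, 7.67, 7.71 and 7.67 against 7.69, 7.65 and 7.65, and did not differ beyond its spread. The other 5 had differences from -0.20 to 0.03 that did not pass, although Adam6 did without ShControl replicate 3 (-0.28, adjusted p = 0.0152).

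**Figure D4:**
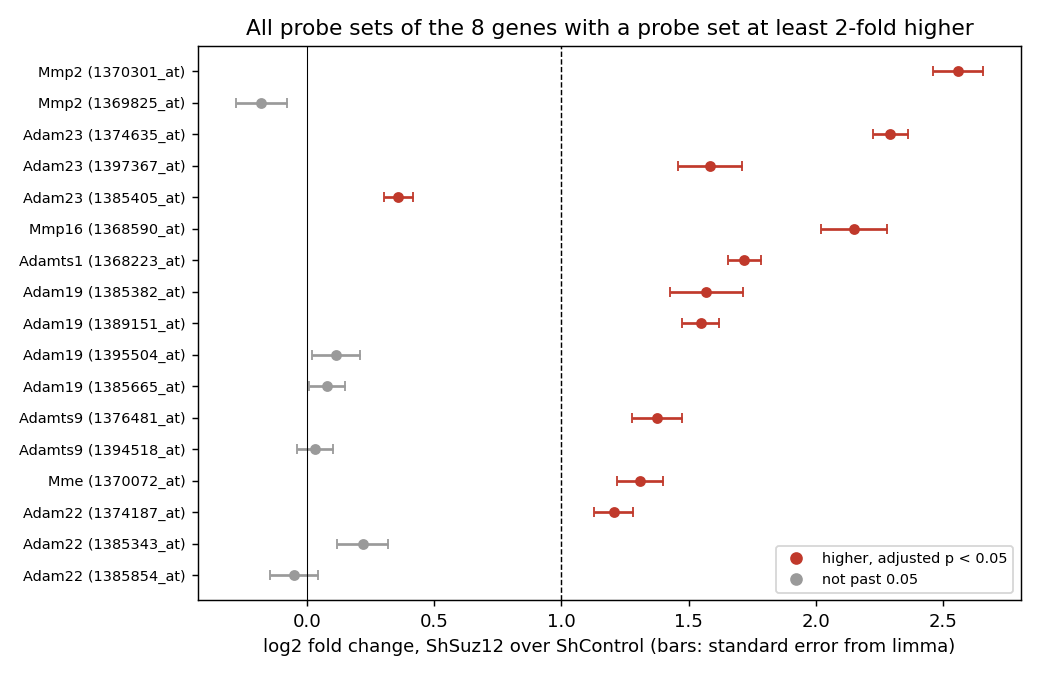
Log2 fold change with its standard error for every probe set of the 8 genes with a probe set at least 2-fold higher, in red where the adjusted p was under 0.05; the dashed line marks 2-fold. Within Mmp2, Adam19, Adamts9 and Adam22 some probe sets sit near 0 while others lie beyond the line, and Adam23 alone of the genes with several probe sets has all of them in red.

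The ADAMTS and ADAMTS-like genes gave 20 probe sets for 16 genes. Of these probe sets 11 rose (55%, against 14.8% of all probe sets) and 2 fell (10%, against 19.5%). With the array medians subtracted 11 rose and 2 fell, against 3576 and 11752 of all 31042 probe sets. Adamts1, a proteoglycanase that cuts versican and aggrecan and is known as an inhibitor of vessel growth, had values of 8.04, 8.22 and 8.20 in ShControl and of 9.93, 9.85 and 9.84 in ShSuz12 samples. Its log2 fold change was 1.72 (SE 0.07, adjusted p = 6.91e-07, limma), and its signal moved from percentile 73.3 to percentile 91.2. Adamts9, of the same proteoglycanase class, rose at 1376481_at from 5.08, 4.84 and 5.01 to 6.17, 6.48 and 6.42 (1.38, SE 0.10, adjusted p = 2.36e-05). Its second probe set did not separate the groups and differed by 0.03 (adjusted p = 0.771).

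Adamts5, the main aggrecanase of cartilage, is the direct neighbour of Adamts1 among protein-coding genes of the rat genome, and both of its probe sets rose. Probe set 1394483_at went from 4.96, 4.99 and 4.94 to 5.88, 5.78 and 5.76 (0.84, SE 0.06, adjusted p = 1.57e-05) and 1384724_at from 4.28, 3.98 and 4.27 to 4.72, 4.77 and 4.72 (0.56, adjusted p = 0.00157). All 3 probe sets of this neighbouring pair rose, against 55% of the family, which includes them, and 14.8% of all probe sets. Past 2-fold was 1 of them, against 10% of the family and 3.1% of all probe sets. In the other neighbouring pair of the family, Adamts15 and Adamts8, the differences were 0.12 and 0.02 and the groups overlapped. The remaining aggrecanase, Adamts4, was low, with values from 3.65 to 3.96, and differed by 0.05 (adjusted p = 0.68).

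Adamts12 and Adamts7, which cut cartilage oligomeric matrix protein, both rose, Adamts12 by 0.71 (adjusted p = 0.000227) and Adamts7 from 8.38, 8.47 and 8.40 to 9.10, 8.96 and 9.08, by 0.63 (adjusted p = 0.000113). Adamts6 rose by 0.33 (adjusted p = 0.00611). Adamts10, an enzyme tied to fibrillin microfibrils, was the gene of this family that fell. Its values were 8.07, 8.23 and 8.04 against 7.59, 7.63 and 7.76 at 1395527_at (-0.45, SE 0.07, adjusted p = 0.00197). At its other probe set it fell by 0.24 (adjusted p = 0.0165), which was lost without ShSuz12 replicate 1 or 2 (adjusted p = 0.0512 and 0.0582). Adamts16 and Adamts19 differed by 0.19 and 0.03 and did not pass, although Adamts16 did without ShControl replicate 2 (0.26, adjusted p = 0.0186).

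ADAMTS-like proteins bind fibrillin matrix and have no protease domain. Of their 5 probe sets, 4 rose (80.0%, against 14.8% of all probe sets) and 0 fell (against 19.5%). Adamtsl5 had values of 8.62, 8.61 and 8.62 in ShControl and of 9.57, 9.65 and 9.61 in ShSuz12 samples, a log2 fold change of 0.99 (SE 0.05, adjusted p = 3.57e-06, limma). At 1.99-fold it lay just under the 2-fold limit. Its dimmer probe set rose by 0.61 (adjusted p = 0.0122), a call lost with the methods' t-test (adjusted p = 0.094). Adamtsl4 rose from 8.49, 8.45 and 8.22 to 8.82, 8.87 and 8.93 (0.49, adjusted p = 0.00209) and Adamtsl1 by 0.53 at a low signal (adjusted p = 0.000663). Adamtsl2 differed by 0.06 (adjusted p = 0.383).

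Plasmin, made from plasminogen by the activators Plat and Plau, removes the propeptide of several MMPs, and Plaur holds Plau at the cell surface. Plat had values of 10.44, 10.41 and 10.50 against 11.02, 11.00 and 11.09 and rose by 0.58 (SE 0.05, adjusted p = 0.000109, limma), or 1.5-fold. Plau was low at both probe sets, with values from 3.39 to 4.14 and differences of -0.19 (adjusted p = 0.0635, and -0.25 with adjusted p = 0.0235 without ShControl replicate 2) and 0.02. Plaur was well measured at 1387269_s_at, at 8.61, 8.41 and 8.58 against 8.60, 8.62 and 8.55, and differed by 0.06 (95% interval -0.10 to 0.21). With the array medians subtracted, the first of these Plau probe sets also fell (-0.30, adjusted p = 0.00798).

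Mme, or neprilysin, is a surface peptidase that degrades enkephalins, substance P and other small peptides. It had values of 5.17, 5.45 and 5.45 in ShControl and of 6.78, 6.63 and 6.60 in ShSuz12 samples, with a log2 fold change of 1.31 (SE 0.09, adjusted p = 1.99e-05, limma). Ece1, a relative that makes endothelin, was at 8.91, 8.96 and 8.88 against 8.98, 9.03 and 9.06. Its groups did not overlap, but the difference of 0.11 did not pass (adjusted p = 0.162).

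The HtrA serine proteases are secreted, cut matrix proteins and are known to dampen signaling by transforming growth factor beta. Htra3 rose at 1372565_at from 6.51, 6.73 and 6.69 to 7.61, 7.63 and 7.62 (0.98, SE 0.07, adjusted p = 2.23e-05), or 1.97-fold, just under the limit. Its other probe sets differed by -0.03 and -0.15 and did not pass, although the latter fell with the array medians subtracted (-0.25, adjusted p = 0.0133). Htra1, at percentile 99.1, rose from 12.38, 12.38 and 12.32 to 12.56, 12.56 and 12.52, by 0.19 (adjusted p = 0.0218). The call of Htra1 was lost without ShControl replicate 3 or ShSuz12 replicate 1 or 2 (adjusted p 0.0641 to 0.0720), and with the array medians subtracted (0.09, adjusted p = 0.202).

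**Figure D5:**
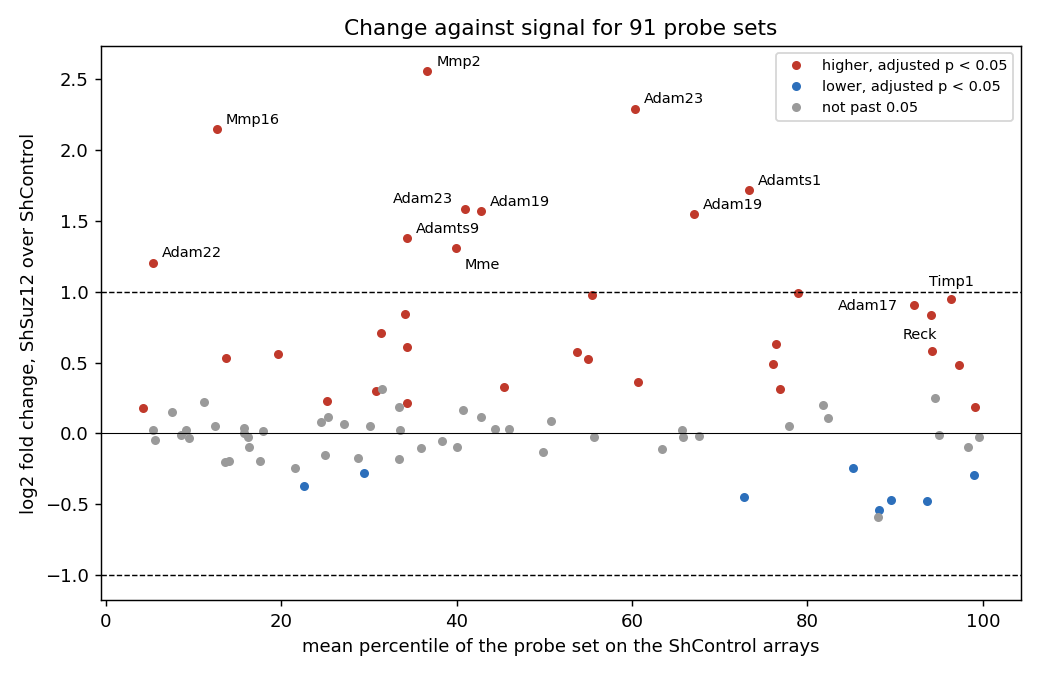
Log2 fold change of the 91 probe sets against their mean percentile of signal on the ShControl arrays, coloured by direction at an adjusted p under 0.05; dashed lines mark 2-fold. The changes past 2-fold lie between percentile 5.4 (Adam22) and percentile 73.3 (Adamts1). Under the line, Timp1 (0.95), Adam17 (0.91) and Reck (0.83) lie above percentile 90. Nearer to the line, Adamtsl5 1392553_at (0.99) lies at percentile 78.9 and Htra3 1372565_at (0.98) at percentile 55.4.

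Signal differed widely among the members. In both groups 17 probe sets, among them all probe sets of 12 genes, lay under the 20th percentile of the array, while 53 were above the 40th percentile in at least 1 group. Of the 8 genes at least 2-fold higher, 5 had several probe sets and 1 of these 5 had all of its probe sets past the test. No called probe set had a name that marks possible shared sequence. Percentiles here rank signal, and amounts of transcript were not compared between genes, since probe sets differ in how strongly they bind.

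Genes that act with the proteases moved in both directions. They were counted on lists chosen with earlier results of these data known, so the shares below only describe these lists. Among 20 probe sets of the serpins and the plasminogen system, 4 rose (20%, against 3.1% of all probe sets) and 1 fell (5.0%, against 0.396%) at least 2-fold. Without the fold limit 6 rose (30%, against 14.8%) and 5 fell (25%, against 19.5%). Serpine2, an inhibitor of plasminogen activators and thrombin, went from 3.82, 4.50 and 4.45 to 9.02, 8.98 and 8.94 (log2 fold change 4.72, adjusted p = 4.28e-07). Serpini1, an inhibitor of Plat, rose by 4.56 and 3.91 at its probe sets, and Procr by 1.02. Thbd fell by 1.18 at one of 3 probe sets and less at another (-0.51, adjusted p = 0.00318, limma). Both serpins inhibit the activator that rose, and no protein or activity was measured.

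Among 34 probe sets of protease activators and regulators, 3 rose (8.82%, against 3.1% of all probe sets) and 0 fell (against 0.396%) at least 2-fold. A2m, a trap for proteases of every class, rose from 4.11, 4.46 and 4.30 to 9.36, 9.36 and 9.35 (5.07, adjusted p = 1.55e-08). Itgb3, whose integrin can hold Mmp2 at the cell surface, rose by 2.60 (adjusted p = 5.3e-07). Tspan33, a tetraspanin partner of Adam10, rose by 1.25 at one of 3 probe sets and less at another (0.45, adjusted p = 0.00496, limma). At an adjusted p under 0.05, 13 probe sets of this list rose (38.2%, against 14.8% of all probe sets) and 3 fell (8.82%, against 19.5%).

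Among 50 probe sets of proteins that ADAMs shed, 6 rose (12.0%, against 3.1% of all probe sets) and 2 fell (4.0%, against 0.396%) at least 2-fold. In this list 14 rose (28.0%, against 14.8%) and 16 fell (32%, against 19.5%) without the fold limit. Vcam1 rose by 3.10 (adjusted p = 5.69e-06), Cx3cl1 by 2.27 (adjusted p = 5.44e-05), Cdh2 by 2.32 and 1.96 at 2 of 3 probe sets, and Notch1 by 2.00 and 1.86. Jag1 fell by 1.18 and Kitlg by 1.06, and both were named after their values were seen. Of these, Notch1 and Cdh2 are known substrates of Adam10, and Vcam1 and Kitlg of Adam17. Which ADAM sheds each protein in these cells was not tested.

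Among 40 probe sets of related metallopeptidases outside the rule, 2 rose (5.0%, against 3.1%) and 0 fell (against 0.396%) at least 2-fold. At an adjusted p under 0.05 alone, 6 rose (15%, near the 14.8% of all probe sets) and 5 fell (12.5%, against 19.5%). Enpep rose by 1.95 at one probe set and differed by 0.19 at a brighter one, and Cpm rose by 1.06. Of 27 probe sets for AP-1, ETS and NF-kB factors known to control MMP genes, 1 was at least 2-fold higher (3.7%, near the 3.1% of all probe sets), Ets2 (1.12, adjusted p = 1.74e-05). Without the fold limit 9 rose (33.3%, against 14.8%) and 5 fell (18.5%, near the 19.5% of all probe sets).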

How the data were processed

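Total RNA of IEC-6 cells from 3 independent experiments per line was hybridised to Affymetrix rat genome arrays. The authors deposited 1 log2 value per probe set and array, made with FlexArray and RMA (background correction, normalization between arrays and summarization). Present calls and scanner files were not used here, so depth of signal is given as a percentile of the array. The number of arrays, 3 per group, limits the precision.

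Without 57 control probe sets, the other 31042 were fitted in limma 3.58.1 (lmFit, then eBayes; R 4.3.3) and tested two-sided, with Benjamini-Hochberg adjustment over all of them. A call needed an adjusted p under 0.05 and, where stated, at least 2-fold. The methods named Student's test, which was run as an alternative and is called the methods' t-test. Exact permutation over 3 against 3 arrays cannot go below p = 0.1. The scripts were tested on simulated data. Groups came from the sample labels. The annotation gave 1 symbol for 20826 probe sets and several for 436, and did not list 9780. All 91 member probe sets matched the current gene table, with 0 changed symbols.

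Members and lists were chosen with earlier results of these data known. Full values were given for genes with a 2-fold call, up to 3 per role by change and up to 3 by level, and every TIMP, Reck, Plat, Plau and Plaur. Other members were named to account for all of them, after their values were seen. A check of the replicate numbers found no pairing between the groups. Promoters (250 bases before the start) and gene order came from RefSeq tables of GRCr8. Figures were drawn with matplotlib 3.10.9.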

Additional observations from a re-analysis of the deposited data

How the results depend on the processing

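All 10 calls at 2-fold remained with the methods' t-test, either scaling, the intensity trend, an adjusted p under 0.01, the replicate block and each array left out. The count was 5 with probe sets kept only above the 60th percentile in 2 of 3 arrays of a group, where Adam22, Adamts9, Mme, Mmp16 and one Adam23 probe set were not tested, and 9 at the 40th percentile. It was 19 at 1.5-fold, 6 with the brightest probe set of each of 63 genes, 5 after averaging the probe sets of a gene, and 10 to 11 with 1 array left out, as Htra3 or Adamtsl5 passed 2-fold. Probe sets higher without the fold limit went from 34 to 18 under the 60th percentile filter. Those lower went from 8 to 4 with the adjusted t-test, 15 with medians subtracted, 3 at an adjusted p under 0.01, 5 with gene means, and 4 to 11 with 1 array left out. The adjusted t-test ended 9 calls, those of Timp3 1368989_at, Adam10 1388161_at, Adam2, Adam8 1391720_at, Adam32, Adamtsl5 1385448_at, Mmp14 1378225_at, Mmp15 and Mmp23 1381451_at (adjusted p 0.0725 to 0.167). The filters tested fewer probe sets, and the cause of the other shifts was not tested. In all, 6 calls that rose and 5 that fell were lost without some array, and 12 were gained.

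Same-numbered samples did not deviate together (correlations 0.02, -0.04 and -0.06), and the fit with the replicate number as a block gave 10 calls of 2-fold higher, 0 of 2-fold lower, and 31 higher and 9 lower without the fold limit.

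Among the genes named by rule, signs turned only for differences near 0 that passed in no fit named here. With medians subtracted these were Adam19 1385665_at (-0.021), Adamts9 1394518_at (-0.070), Plau 1387675_at (-0.078) and Plaur 1387269_s_at (-0.046). With a second quantile normalization these were Adam15 1387135_at (0.027) and Adamts9 1394518_at (-0.062). With 1 array left out, the ranges were -0.082 to 0.074 for Adam15 1387135_at, -0.13 to 0.030 for Adam22 1385854_at, -0.012 to 0.091 for Adamts9 1394518_at, -0.079 to 0.039 for Htra3 1375306_at, -0.049 to 0.018 for Mmp24 1389833_at, -0.065 to 0.076 for Plau 1387675_at, -0.082 to 0.066 for Plaur 1371286_at, -0.0074 to 0.094 for Plaur 1387269_s_at and -0.20 to 0.0027 for Timp3 1375138_at.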
